A study of Mus musculus with 6 samples.

Results

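Nr4a1, Nr4a3, Klf10, Klf4 and Dusp5 are 5 transcriptional regulators and signalling brakes of the early response class, taken by name from an FPKM table of 1228 genes measured in Bv2 cells. They were chosen by their measured FPKM difference between the same 6 libraries, so those differences are given as a description with no test. RNA was sequenced from 3 samples of Bv2 cells exposed to oxygen and glucose deprivation with later reperfusion (OGD/R) and from 3 control samples, all labelled WT. Bv2 is an immortalised line of mouse microglia, the resident macrophages of the brain, made with a retrovirus carrying the oncogenes v-raf and v-myc, of which v-raf acts in the ERK branch of MAP kinase signalling. For OGD/R the labels' protocol describes 30 min of nitrogen, 2 h at 1% oxygen in a medium lacking glucose and serum, and 24 h back in standard medium with serum. It also names an infection 72 h earlier without saying which samples received it, and does not say how control cells were handled, so infection, medium change and OGD/R cannot be told apart. Nothing in the labels says that the 3 samples of a group came from separate cultures, so the spread between them, and every p-value, may be technical.

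Early response genes are switched on within minutes of a stimulus, without new protein synthesis, and most are shut off again within hours. Nr4a1 (Nur77) and Nr4a3 (NOR-1) encode nuclear receptors with no known natural ligand, whose activity follows their abundance, and Nr4a1 is known for restraining inflammatory gene expression in macrophages and microglia. Klf10, first described as a gene induced early by TGF-beta, and Klf4, known for reprogramming and for monocyte differentiation, encode zinc finger factors that bind GC-rich and CACC-rich DNA. Dusp5 encodes a nuclear phosphatase that removes the activating phosphates from ERK and is itself induced by ERK. These data were taken 24 h after reperfusion began, well past the usual peak of such genes.

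The deposited table is limited to genes whose groups differed by about 2-fold or more, and how they were picked is not stated. The OGD/R mean was above the control mean in 605 of them and below it in 623, and the log2 ratio nearest to 0 was 1.03 among the higher and -0.97 among the lower. FPKM is a count per exon length and library size, and the steps between low values corresponded to 8029672 to 8665224 counted units per OGD/R library and 7627684 to 8246592 per control library. Rank correlations between libraries (Spearman, across genes, which are not independent replicates) were 0.951 to 0.978 within OGD/R and 0.938 to 0.968 within control, with control replicate 1 the least like the others of its group. Of 16 microglial and macrophage markers 2 were in the table, Cx3cr1 and P2ry12, together at 2.81 to 3.17 FPKM in OGD/R and 0.79 to 1.08 FPKM in control. The remaining 14 are not analysed here, so the label could be checked on those 2 only. Of 29 markers of other cell types 3 were in the table (Vwf, Tubb3 and Cspg4), with sums of 1.47 to 1.97 FPKM in OGD/R and 4.01 to 5.11 FPKM in control, and Tubb3 and Cspg4 were listed at 0 in OGD/R replicate 2. Their part in the results was not tested. In bulk RNA, fewer cells expressing a gene and less of its RNA per cell cannot be told apart.

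The DNA just before the start sites is shown first, because CREB, bound at the cyclic AMP response element (CRE), and serum response factor, bound at the CArG box, are the textbook inducers of early response genes. The stretches below come from RefSeq on GRCm38.p6 and run 5′ to 3′ towards the start site on the gene's strand. They end where an exon annotated in GENCODE M21 begins, so Nr4a3 has 98 bases and Dusp5 214, against 250 for the others. Capitals mark the CRE half-site TGACG, read on both strands (CGTCA on the other), and the CArG box. Nr4a2, the remaining member of the Nr4a family, is shown for comparison, and Klf4 as the one gene of the 5 that was lower.
Nr4a1 (chr15:101266596-101266845, plus strand): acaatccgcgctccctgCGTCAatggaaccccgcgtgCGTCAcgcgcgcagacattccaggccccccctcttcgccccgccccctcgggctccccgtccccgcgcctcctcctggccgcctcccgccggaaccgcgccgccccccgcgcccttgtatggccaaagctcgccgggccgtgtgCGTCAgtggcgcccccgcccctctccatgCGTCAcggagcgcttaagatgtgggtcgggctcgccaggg
Nr4a3 (chr4:48045055-48045152, plus strand): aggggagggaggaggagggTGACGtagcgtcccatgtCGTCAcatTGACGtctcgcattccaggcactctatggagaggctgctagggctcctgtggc
Nr4a2 (chr2:57124004-57124253, minus strand): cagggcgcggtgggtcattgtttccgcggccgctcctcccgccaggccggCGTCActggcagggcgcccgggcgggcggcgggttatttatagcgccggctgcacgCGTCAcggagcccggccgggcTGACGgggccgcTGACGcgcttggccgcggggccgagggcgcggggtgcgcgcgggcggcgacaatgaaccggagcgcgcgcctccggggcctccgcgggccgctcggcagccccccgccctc
Dusp5 (chr19:53528895-53529108, plus strand): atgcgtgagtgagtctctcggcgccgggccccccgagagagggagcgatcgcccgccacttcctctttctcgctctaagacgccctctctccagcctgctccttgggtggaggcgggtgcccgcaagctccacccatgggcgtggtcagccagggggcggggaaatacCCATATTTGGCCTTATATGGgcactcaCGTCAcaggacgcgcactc
Klf4 (chr4:55532476-55532725, minus strand): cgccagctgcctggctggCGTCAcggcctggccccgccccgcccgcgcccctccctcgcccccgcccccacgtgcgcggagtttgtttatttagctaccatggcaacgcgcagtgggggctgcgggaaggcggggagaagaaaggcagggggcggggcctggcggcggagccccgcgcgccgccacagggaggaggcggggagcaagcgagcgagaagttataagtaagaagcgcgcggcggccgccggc

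The 3 Nr4a genes each held 4 CRE half-sites in the 250 bases before the RefSeq start site. In Nr4a3, 3 of them were in the stretch printed, and the other lay past the first base of an annotated exon. The Nr4a1 window lies before a start site at 101266846, inside the span annotated for the gene, which begins further upstream at 101254269. Among 32851 windows of 250 bases in the RefSeq table, 17.8% held at least 1 half-site and 0.137% held 4 or more. The windows of Nr4a1, Nr4a3 and Nr4a2 were 74.4%, 63.6% and 80.0% G and C, and these shares were not matched for that content. Klf4 and Dusp5 had 1 half-site each. Dusp5 had 2 CArG boxes placed end to end, CCATATTTGG and CCTTATATGG, from base -82 to base -63; of all windows 1.47% held at least 1 CArG box and 0.0183% held 2 or more. The full CRE, TGACGTCA (1.55% of windows), which would also count as 2 half-sites, the AP-1 site TGANTCA (6.75%) and the NBRE bound by Nr4a receptors, AAAGGTCA (1.34%), were in none of these 5 windows. The GC box GGGCGG, a site of the Klf and Sp type, was in all 5, with 1 match in Nr4a3 and in Dusp5, 3 in Nr4a1 and 4 in Nr4a2 and in Klf4, and in 32.7% of all windows. The window of Klf4 was 74.0% G and C, close to the 74.4% of Nr4a1. These are matches of letters, chosen with the sequences in view, and say nothing of binding in these cells.

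**Figure D1:**
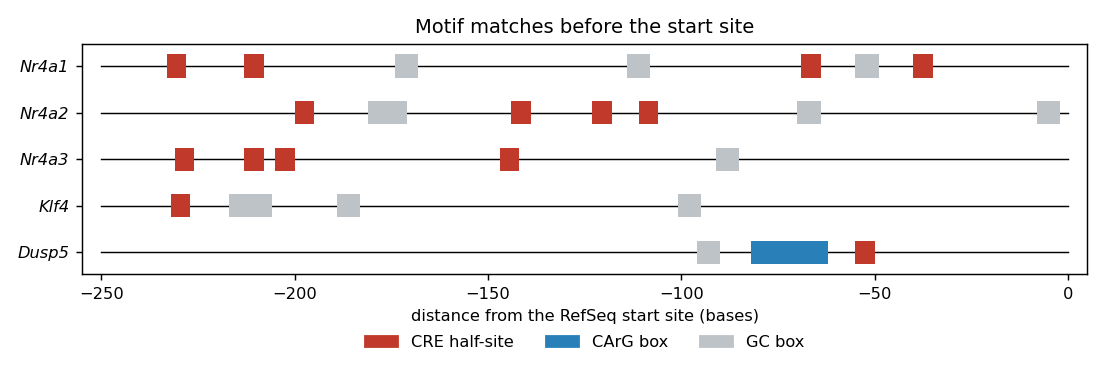
Positions of CRE half-sites (red), CArG boxes (blue) and GC boxes (grey) on either strand in the 250 bases before the RefSeq start site, 1 line per gene, with the distance from the start site in bases on the x axis. Each Nr4a gene has 4 red marks, and the 2 CArG boxes of Dusp5 lie side by side from -82 to -63.

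Among the 5 genes, Nr4a1, Nr4a3, Klf10 and Dusp5 were higher and Klf4 was lower in OGD/R, and in all 5 the 3 OGD/R values lay apart from the 3 control values. Such separation held for 94.9% of the table, 48.4% higher and 46.5% lower, because the table was picked for differences, so the count says nothing particular about these genes. By the ratio of group means Nr4a1 ranked 56 among the 605 higher genes, Klf10 115 and Dusp5 226, and Klf4 ranked 128 among the 623 lower genes. Nr4a1, Klf10, Klf4 and Dusp5 had a mean of at least 1 FPKM over the 6 libraries, the minimum used for tests in the table, and Nr4a3 did not. Nr4a1 passed that minimum only through its OGD/R values and Klf4 only through its control values.

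Nr4a1 (ENSMUSG00000023034, a protein-coding gene on chromosome 15 of GRCm38, 101254269 to 101274795, plus strand) had 5.47, 6.73 and 7.96 FPKM in OGD/R, against 0.78, 0.69 and 0.67 FPKM in control. Every OGD/R library was well above every control library, and the control values lay close together. The means were 6.72 ± 1.25 and 0.713 ± 0.0586 FPKM in OGD/R and control (SD, n = 3 each), a ratio of 9.42. In counted units that was 154, 200 and 242 in OGD/R, against 21, 20 and 18 in control, so the control values rest on few reads. Within the table its level stood at percentile 73.5 of all genes in OGD/R and 27.4 in control.

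Nr4a3 (ENSMUSG00000028341, protein-coding, chromosome 4, 48045153 to 48086447, plus strand) was close to the limit of detection, at 0.10, 0.06 and 0.08 FPKM in OGD/R, and was listed at 0 in all 3 control libraries. With 5987 nt of exons 1 counted unit is worth about 0.0193 to 0.0219 FPKM, and the OGD/R values correspond to 5, 3 and 4 units. Set against a floor of 3 units over the 3 control libraries together, the 12 units of OGD/R were 3.74-fold higher per library size. The floor allows for counting error in control only and the 12 units were taken as exact, so a true ratio below 3.74 is possible. Nr4a3 was therefore the faintest of the 5 genes in both groups, and its control level was not detectable at this depth.

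Nr4a2 (Nurr1), which completes the family and is the only one of these relatives in the table beside the pair above, had 3.16, 4.25 and 3.78 FPKM in OGD/R, against 1.00, 1.25 and 1.62 FPKM in control. It rose, with a log2 fold change of 1.05 ± 0.15 SE on the log2(FPKM + 1) scale (limma, adjusted p = 0.00062), where 97.3% of the 852 genes tested passed an adjusted p of 0.05 (46.6% of the 852 as higher and 50.7% as lower). That scale makes changes of weakly expressed genes look smaller, and the ratio of its means was 2.89. Nr4a2 was thus higher in OGD/R, as were Nr4a1 and Nr4a3. Those were chosen for their differences, so the 3 together are no evidence of a family response. Nr4a1 was above Nr4a2 in OGD/R and below it in control. The retinoid X receptors, partners of Nr4a1 and Nr4a2, are not analysed here.

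Klf10 (ENSMUSG00000037465, protein-coding, chromosome 15, 38291463 to 38300706, minus strand) had 7.54, 7.57 and 9.31 FPKM in OGD/R, against 1.03, 1.74 and 1.85 FPKM in control. The OGD/R libraries were close to each other, and control replicate 1 was the lowest of all. The means were 8.14 ± 1.01 and 1.54 ± 0.445 FPKM in OGD/R and control (SD, n = 3 each), a ratio of 5.29. Klf11, its closest relative and likewise a TGF-beta-inducible factor, had 3.96, 3.29 and 2.58 FPKM in OGD/R, against 1.17, 0.64 and 0.69 FPKM in control. It passed the minimum only through its OGD/R values, and rose 3.93-fold in means (limma, log2 fold change 1.22 ± 0.17 SE, adjusted p = 0.00064).

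Klf4 (ENSMUSG00000003032, protein-coding, chromosome 4, 55527143 to 55532466, minus strand) had 1.06, 1.01 and 0.83 FPKM in OGD/R, against 4.92, 4.85 and 3.74 FPKM in control. All OGD/R values were far below the lowest control value, which was that of replicate 3. The means were 0.967 ± 0.121 and 4.50 ± 0.662 FPKM in OGD/R and control (SD, n = 3 each), so control was 4.66-fold higher. Klf3, a repressor of the same family, had 1.24, 1.75 and 1.72 FPKM in OGD/R, against 3.41, 3.44 and 3.46 FPKM in control, and fell (limma, log2 fold change -0.79 ± 0.12 SE, adjusted p = 0.00075). Of 27 other Klf and Sp genes listed, Klf3 and Klf11 were the 2 in the table. Of these 1 rose and 1 fell, where 46.6% of all genes tested rose and 50.7% fell. Klf4 and Klf10 were chosen for their differences and add nothing to this count.

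Dusp5 (ENSMUSG00000034765, protein-coding, chromosome 19, 53529109 to 53542431, plus strand) had 12.64, 15.52 and 11.25 FPKM in OGD/R, against 4.69, 4.17 and 4.03 FPKM in control. The lowest OGD/R library was more than 2-fold above the highest control library. The means were 13.1 ± 2.18 and 4.30 ± 0.348 FPKM in OGD/R and control (SD, n = 3 each), a ratio of 3.06. Of 26 other dual specificity phosphatases listed 3 were in the table, and 1 rose and 2 fell, where 46.6% of all genes tested rose and 50.7% fell. Their median log2 fold change was -0.63, against -0.68 over all genes tested. The table holds no gene with a log2 ratio of means between -0.97 and 1.03. Its median therefore depends on how many genes rose or fell and is no typical change. Dusp4, a nuclear MAP kinase phosphatase of the same subfamily as Dusp5, was far more abundant and went the other way, with 55.58, 51.72 and 47.89 FPKM in OGD/R, against 117.36, 95.07 and 94.74 FPKM in control (limma, log2 fold change -0.97 ± 0.13 SE, adjusted p = 0.00046). Dusp14, a small phosphatase without the MAP kinase binding domain, had 3.01, 3.89 and 5.22 FPKM in OGD/R, against 1.74, 1.56 and 1.95 FPKM in control, and rose (limma, adjusted p = 0.0033). Dusp23, another small one, had 0.97, 0.59 and 0.25 FPKM in OGD/R, against 1.39, 1.20 and 1.77 FPKM in control, and passed the minimum only through control. It fell with a limma adjusted p of 0.017, which was 0.058 without control replicate 3.

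**Figure D2:**
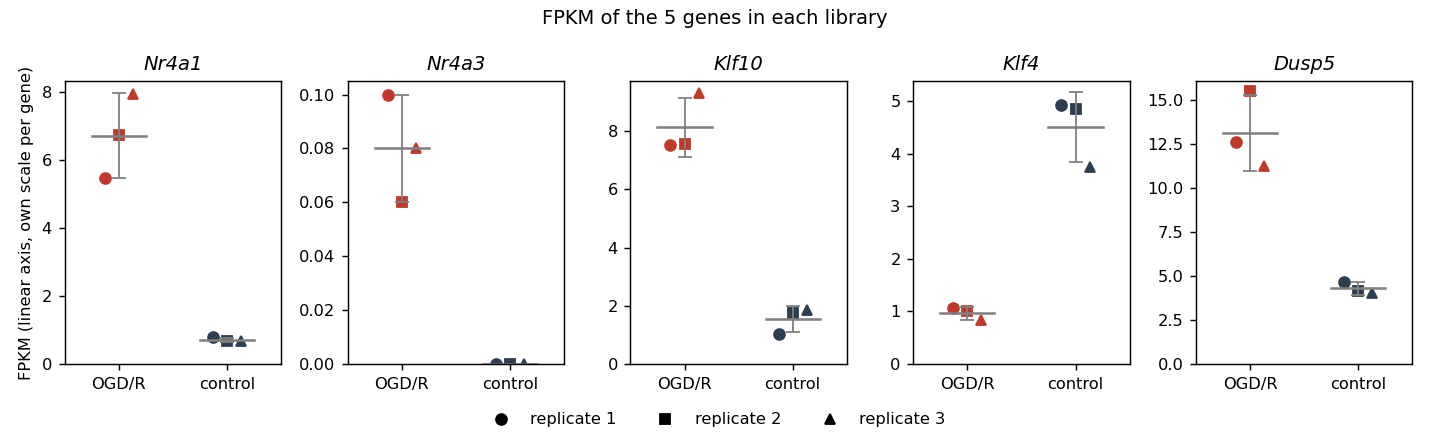
FPKM of Nr4a1, Nr4a3, Klf10, Klf4 and Dusp5 in each library, OGD/R (red) left of control (dark blue), on linear axes that start at 0 and differ between genes; marker shapes give the replicate number, grey lines the mean and bars 1 SD (n = 3). Klf4 lies at 0.83 to 1.06 in OGD/R and 3.74 to 4.92 in control, and in the other 4 panels the OGD/R points are the higher ones.

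**Figure D3:**
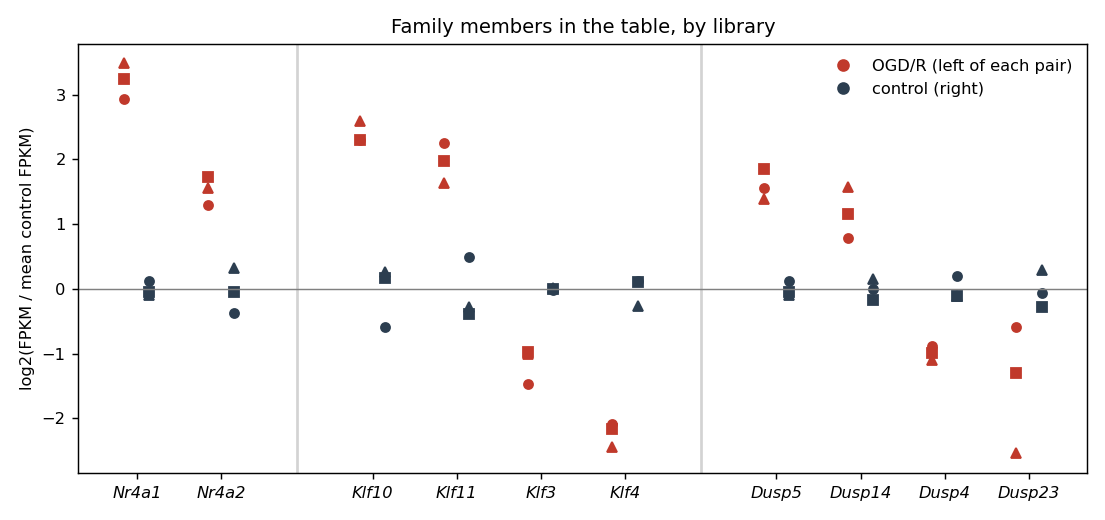
log2 of FPKM over the mean control FPKM for the Nr4a, Klf and Dusp genes of the table, with the OGD/R libraries (red) left of the control libraries (dark blue) and marker shapes for the replicate number; Nr4a3 is left out because its control values are 0. The 2 Nr4a genes plotted lie above 0 in OGD/R, while the Klf and Dusp families each have genes above and below it.

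Per exon length, the order of the 5 genes differed between the groups. In OGD/R Dusp5 was the most abundant, followed by Klf10, Nr4a1, Klf4 and Nr4a3. Klf10 and Nr4a1 overlapped in their OGD/R values, and the other neighbours did not. In control Klf4 and Dusp5 came first with overlapping values, followed by Klf10, Nr4a1 and Nr4a3, which were apart from each other. Within OGD/R, replicate 3 had the highest Nr4a1 and Klf10 and the lowest Klf4 and Dusp5. Within control, replicate 1 had the lowest Klf10, 0.31 below its group mean on the log2(FPKM + 1) scale, and the highest Nr4a1, Klf4 and Dusp5, which were 0.06, 0.11 and 0.11 above theirs. Leaving out control replicate 1 gave log2 fold changes of 2.19 for Nr4a1, 1.70 for Klf10, -1.42 for Klf4 and 1.46 for Dusp5, against 2.16, 1.86, -1.48 and 1.41 with all libraries.

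Among other early response genes, falls as in Klf4 were more numerous than rises as in Nr4a1, Klf10 and Dusp5, in a table where 46.6% of all genes tested rose and 50.7% fell. From a list of 50 such genes 12 were in the table and 10 were tested, of which 2 rose and 7 fell. The list leaves out the 5 genes, of which only Klf4 was lower, so its counts do not describe the class as a whole. Its median log2 fold change was -1.12, against -0.68 over all genes tested. With no minimum these medians were -1.01 and -0.12, so the value over all genes is no typical change to set the list against. Gadd45a, a growth arrest and DNA damage gene, had 2.75, 2.28 and 5.89 FPKM in OGD/R, against 10.94, 24.82 and 22.67 FPKM in control (limma, log2 fold change -2.14 ± 0.39 SE, adjusted p = 0.0019). In Gadd45a, OGD/R replicate 3 and control replicate 1 were the libraries closest to the opposite group. Atf3, a stress-induced transcription factor, had 18.90, 19.24 and 25.56 FPKM in OGD/R, against 62.99, 84.91 and 84.30 FPKM in control, and fell with a log2 fold change of -1.82 (limma, adjusted p = 0.00016). Rgs2, a brake on G protein signalling, fell to a mean of 8.11 ± 1.24 FPKM in OGD/R, against 36.7 ± 6.68 FPKM in control (SD, n = 3 each; limma adjusted p = 0.00012). Besides Nr4a2 the gene that rose was Trib1, a pseudokinase that steers protein degradation, with 3.13, 3.35 and 3.05 FPKM in OGD/R, against 0.65, 0.80 and 0.59 FPKM in control (limma, log2 fold change 1.32 ± 0.11 SE, adjusted p of 0.00011), which passed the minimum only through OGD/R. Rgs1 did not pass (limma, adjusted p = 0.095), but did without control replicate 1 (adjusted p = 0.0061) and, with all libraries, under median ratio scaling (adjusted p = 0.039). The factors of that scaling came only from this table, whose genes were picked for differences between the groups, so they may be off. Other early response genes of the list, Fos, Jun and Egr1 among them, are not analysed here.

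Of 56 listed genes of MAP kinase signalling, on which Dusp5 acts, 4 were in the table and tested. Of these 1 rose and 3 fell, where 46.6% of all genes tested rose and 50.7% fell, and their median log2 fold change was -0.93, against -0.68 over all genes. Dusp4 is 1 of the 3 that fell and is also counted in the phosphatase and early response lists, so these counts are not separate. Spry4, a Sprouty protein that holds back signalling from receptors to ERK, had 2.01, 1.60 and 2.29 FPKM in OGD/R, against 6.63, 9.12 and 7.55 FPKM in control (limma, log2 fold change -1.56 ± 0.15 SE, adjusted p = 0.00016). Like Dusp4 and unlike Dusp5, this brake on the pathway was lower in OGD/R. Rps6ka2, a kinase of the ribosomal S6 kinase family activated by ERK, fell to 1.78 ± 0.199 FPKM in OGD/R, against 4.17 ± 0.655 FPKM in control (SD, n = 3 each; limma adjusted p = 0.00070). Rps6ka5 (MSK1), a kinase of the same family that phosphorylates CREB, rose to 4.02 ± 0.399 FPKM in OGD/R, against 1.86 ± 0.127 FPKM in control (SD, n = 3 each; limma adjusted p = 0.00051).

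Of 36 listed genes of cyclic AMP signalling, a classical input to the Nr4a genes, 6 were in the table. With no minimum applied, 5 of the 6 rose and Pde4d fell, where 96% of all genes were called, 48% higher and 48% lower; no test set the list against the table. The minimum of 1 FPKM left 5 genes, all of them higher, but Pde4b, Adora2b and Crem passed it only through OGD/R, so that count is partly set by the minimum. A pair of phosphodiesterases that break down cyclic AMP were among them. Pde4b had 3.55, 3.10 and 2.95 FPKM in OGD/R, against 0.48, 0.36 and 0.42 FPKM in control (limma, log2 fold change 1.56 ± 0.11 SE, adjusted p = 7.9e-05). Pde7b had 7.24, 7.25 and 6.05 FPKM in OGD/R, against 1.22, 0.74 and 1.06 FPKM in control, a ratio of means of 6.80 (limma adjusted p = 7.9e-05). Prkar2b, a regulatory subunit of protein kinase A, had 10.43, 8.54 and 9.35 FPKM in OGD/R, against 2.11, 2.62 and 2.30 FPKM in control (limma adjusted p = 7.9e-05). Adora2b, an adenosine receptor that couples to cyclic AMP production, rose to 2.23 ± 0.124 FPKM in OGD/R, against 0.737 ± 0.0379 FPKM in control (SD, n = 3 each; limma adjusted p = 0.00026). Crem, a CREB relative that is itself a target of CREB, had 1.82, 1.60 and 2.98 FPKM in OGD/R, against 0.60, 0.97 and 1.29 FPKM in control. Its limma adjusted p was 0.019, and 0.054 without control replicate 1.

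TGF-beta genes were set beside Klf10 and Klf11. Of 41 listed 4 were in the table and tested, and the 4 rose, Klf11 among them, where 46.6% of all genes tested rose. Klf11 and Thbs1 passed the minimum only through OGD/R. With no minimum the list had the same 4 genes, 4 higher and 0 lower, where 48% of all genes were called higher. The median log2 fold change of the 4, 1.27 against -0.68 over all genes, is a description only. Smad3, a transcription factor activated by the TGF-beta receptor, had 4.72, 4.35 and 4.23 FPKM in OGD/R, against 1.01, 1.25 and 1.28 FPKM in control (limma, log2 fold change 1.32 ± 0.11 SE, adjusted p = 0.00011). Tgif2, a repressor that binds Smad proteins, had 2.83, 1.97 and 2.77 FPKM in OGD/R, against 0.61, 1.36 and 1.20 FPKM in control (limma adjusted p = 0.0062). Thbs1, whose product thrombospondin-1 can activate latent TGF-beta, had 6.27, 7.37 and 5.91 FPKM in OGD/R, against 0.09, 0.06 and 0.02 FPKM in control (limma adjusted p = 2.8e-05), control being only 4, 3 and 1 counted units.

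**Figure D4:**
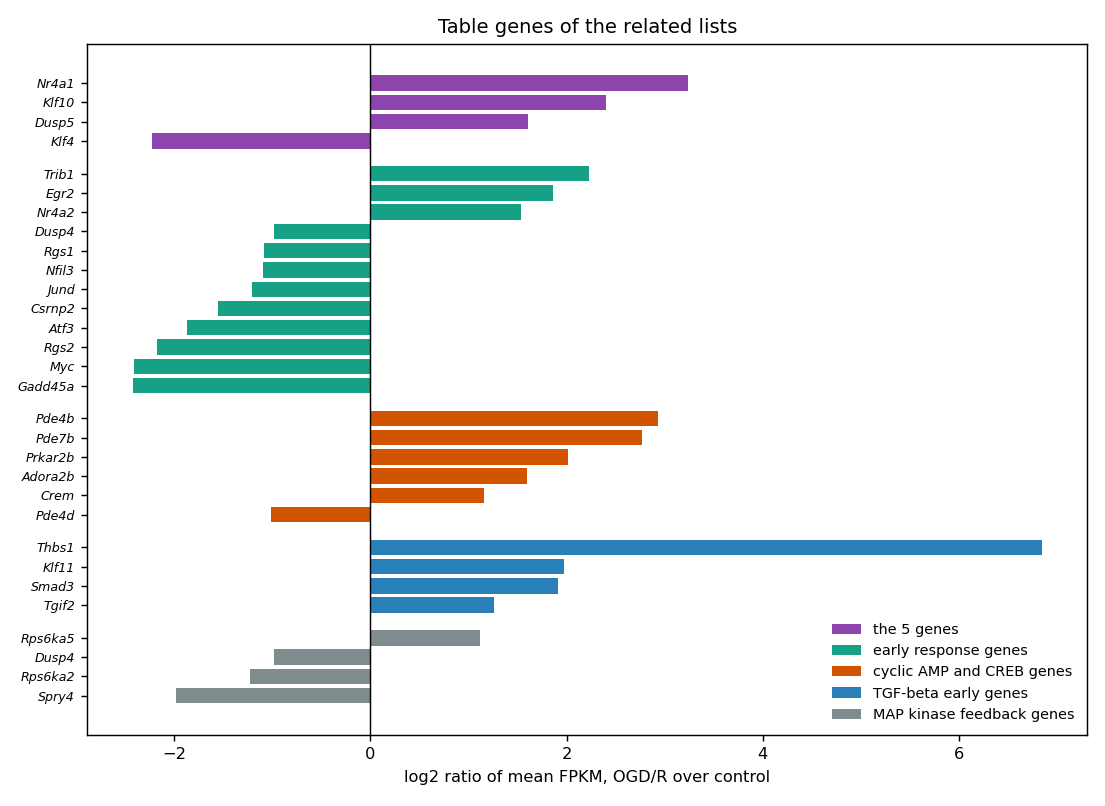
log2 ratio of mean FPKM, OGD/R over control, for Nr4a1, Klf10, Dusp5 and Klf4 and for the table genes of the related lists (bars from 0; no error shown). Bars right of 0 are higher in OGD/R. On that side are 5 of 6 cyclic AMP and CREB genes, 4 of 4 TGF-beta genes and 3 of 12 other early response genes. Of all 1228 genes, 605 had a higher mean in OGD/R. The early response list leaves out Nr4a1, Nr4a3, Klf10, Klf4 and Dusp5, of which only Klf4 was lower. No test set the lists against each other or against all genes. Genes below 1 FPKM on average are drawn too.

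For each of the 5 genes the most similar profiles were sought among 633 other tested genes with a symbol (634 for Nr4a3). Likeness was the root mean square difference of log2(FPKM + 1), centred per gene, over the 6 libraries, so it follows both the direction and the size of the difference between the groups, which all these genes were picked for. For Nr4a1 the nearest were Cytip, a cytohesin-binding adaptor named in the title of the series, at 0.162, and Thbd, the thrombomodulin gene, at 0.164. Cytip had 7.35, 8.83 and 7.70 FPKM in OGD/R, against 1.39, 1.08 and 0.82 FPKM in control. Klf10 was nearest to Asb4, a subunit of ubiquitin ligases, at 0.185 and again to Thbd at 0.187. Dusp5 was nearest to Rrm1, the large subunit of ribonucleotide reductase, at 0.0998 and to Naip1 at 0.101; Naip1 has near-identical paralogs and its value is uncertain. Klf4 was nearest to the sphingosine kinase gene Sphk2 at 0.0915 and to the prostacyclin receptor gene Ptgir at 0.120. For Nr4a3, whose values are too low to give it a clear profile, Pdzrn3 at 0.263 and Psrc1 at 0.267 came nearest.

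Among the 5 genes themselves, Nr4a1 and Klf10 were the most alike, at 0.249. Dusp5 differed from Klf10 by 0.368 and from Nr4a1 by 0.432, since its difference between the groups was smaller. Klf4, with the opposite direction, was 1.45 to 1.83 away from Dusp5, Klf10 and Nr4a1.

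**Figure D5:**
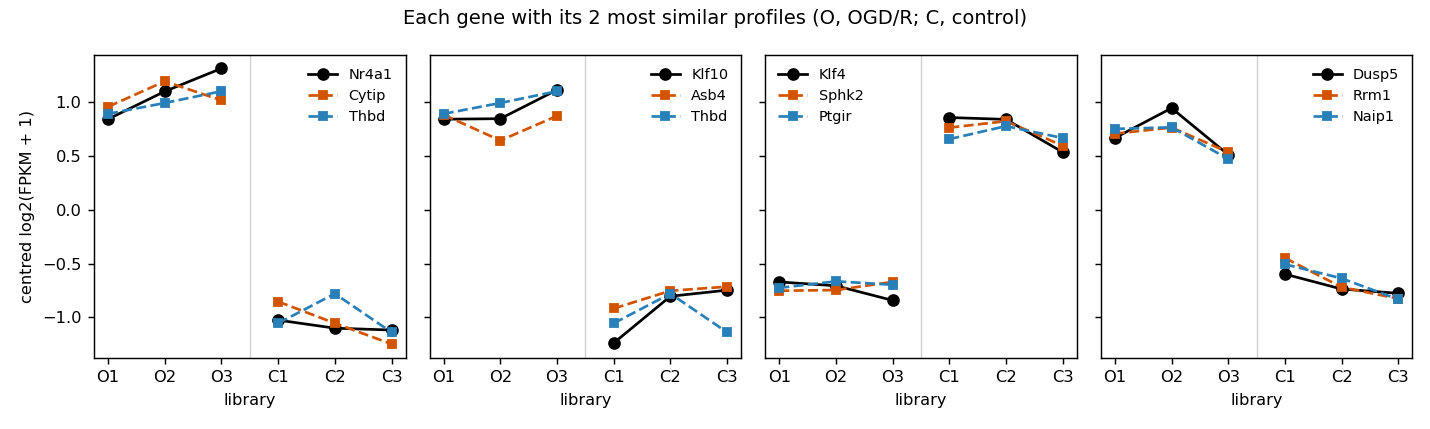
Centred log2(FPKM + 1) of Nr4a1, Klf10, Klf4 and Dusp5 (black circles) and of the 2 most similar genes of each (orange and blue squares) in OGD/R replicates 1 to 3 (O1 to O3) and control replicates 1 to 3 (C1 to C3); lines join libraries of a group for reading only. The Klf4 panel shows the smallest distance, 0.0915 to Sphk2, and the highest Klf10 value is in OGD/R replicate 3.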

How the data were processed

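The data are 6 RNA sequencing libraries of Bv2 cells, 3 OGD/R and 3 control, grouped by sample title. Per the labels' protocols, 1 µg of RNA per sample was used and reads were 150 nt, paired. The deposited values are FPKM, which the authors rounded to 2 decimals; each sample has its own column, and none is pooled. The build is GRCm38, per the submitters' processing notes. Alignment and counting tools, annotation, strand setting and choice of genes were not given in the sources used here. Reads of overlapping or near-identical genes could therefore be split in unknown ways.

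Gene IDs were matched to GENCODE M21, which placed 1227 of 1228. Library sizes were recovered from the FPKM steps by seeking the size that turns values under 15 units into whole units, within rounding plus 0.03 units: 97.2% to 100% of them did, against at most 51.3% at sizes over 3% away and under 1.4 times the one taken. A unit may or may not be a read pair, and the floor used for Nr4a3 covers counting error in control only. Sizes were recovered within 0.0041% on simulated tables of 1227 genes.

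A linear model of log2(FPKM + 1) was fitted in limma 3.58.1 under R 4.3.3 to genes averaging at least 1 FPKM (two-sided, group as sole factor, eBayes with trend), with Benjamini-Hochberg adjustment over 852 genes. On simulated data for this comparison (852 genes, 200 changed), changes of 2-fold and 4-fold were set on the log2(FPKM + 1) scale. The fit called 85% of genes changed 2-fold, 98% of those changed 4-fold and 1.07% of the unchanged ones. For a weak gene such a change is larger in FPKM, as in Nr4a2 (log2 fold change 1.05, ratio of means 2.89). The shares called at these changes in FPKM may therefore be lower. In the real data 829 of 852 genes were called, so the simulated share of changed genes was much smaller. A further gene was left out of the lists and is not reported here. The 5 genes, the lists and the tests were chosen with earlier results of these data known, and the table itself was picked on these samples, so no p-value is independent evidence. Beside the 5 genes, up to 4 genes per list were given values, those with the largest fold change, with Crem, because 1 library decided its call, and Rgs1, whose call changed with 1 library and with the scaling, and the 2 most similar profiles per gene. Promoter windows were matched by symbol in a RefSeq table on GRCm38.p6; 4 of the 5 genes matched (Klf10 did not), with motifs searched on both strands. Tables and figures were made with pandas 2.3.3, numpy 2.4.6 and matplotlib 3.10.9 under Python 3.11.15. Alternatives covered the pseudocount, the expression filter, a scaling, the eBayes trend, a replicate block, each library left out, and voom on the recovered units.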

Additional observations from a re-analysis of the deposited data

How the results depend on the processing

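In Nr4a1, Klf10, Klf4 and Dusp5 all OGD/R values lay apart from all control values. No pseudocount and no library left out could therefore reverse a direction, so sameness there is no evidence of robustness. The directions of these genes were the same in every setting run. Their sizes followed the pseudocount, which shrinks low values: against log2 fold changes of 2.16, 1.86, -1.48 and 1.41 with a pseudocount of 1, a pseudocount of 0.1 gave 3.05, 2.36, -2.11 and 1.58, a pseudocount of 0.01 gave 3.20, 2.43, -2.20 and 1.60, and counted units over library size with no pseudocount gave 3.22, 2.44, -2.22 and 1.60. No fold change of Nr4a3 was computed, because it was listed at 0 in control. Of 852 genes tested 829 were called; with a filter of at least 5 FPKM, which tested 423, it was 409. With no filter 1179 of 1228 were called, and the early response list had 3 higher and 8 lower of 12, the cyclic AMP list 5 higher and 1 lower of 6. The filter of 5 FPKM left 1 called phosphatase in place of 3, 1 called MAP kinase gene in place of 4 and 1 called cyclic AMP gene in place of 5, because fewer were tested, and left no Klf or TGF-beta gene to test. Over all genes 789 to 829 were called without any 1 library. Of 143 values computed under alternatives, 127 kept within the spread between replicates or within 1.5 times the count. With the replicate block 835 genes were called. Libraries sharing a number had deviations from their group means that correlated at 0.428, -0.349 and 0.375, and those of unlike number at -0.628 to 0.479. With 3 libraries per group the deviations are tied to each other, so these values cannot decide whether the numbers pair the libraries. Depth limits Nr4a3 most, at 3 to 5 units per OGD/R library.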

Other observations

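Genes of the related lists with a mean under 1 FPKM were tested only where no minimum was applied, and are named because of that; all 3 passed limma there. Egr2, an early response transcription factor, had 0.33, 0.24 and 0.41 FPKM in OGD/R, against 0.12, 0.11 and 0.04 FPKM in control. Myc, a growth-promoting transcription factor, had 0.14, 0.22 and 0.08 FPKM in OGD/R, against 0.67, 0.89 and 0.77 FPKM in control. Pde4d, a cyclic AMP phosphodiesterase of the same subfamily as Pde4b, had 0.45, 0.30 and 0.27 FPKM in OGD/R, against 0.66, 0.67 and 0.73 FPKM in control, the opposite direction to Pde4b.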
